A study of Homo sapiens and Mus musculus with 6 samples.

Results

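Distal fragments shared by many promoters of the human lymphoblastoid line GM12878 were chosen on the interaction calls themselves. A fragment entered when it was the other end of a call on the chromosome of its bait (a cis call), carried no bait name, was never listed as a bait, and was called from 5 or more different baits. Of 39953 such unbaited fragments with a cis call, 1564 (3.91%) met this rule and are named shared fragments here. They took 10540 of the 65292 cis calls to unbaited fragments (16.1%), covered 8.88 Mb in all, and were called from 2750 of the 15389 listed baits (17.9%). These counts depended on how a call was counted: 84 fragments were shared among calls with a score of at least 10, and 906 remained when baits within 20 kb of each other were counted as 1.

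The data came from Promoter Capture Hi-C (CHi-C), in which cross-linked chromatin is cut with the restriction enzyme HindIII, ligated, and enriched with RNA probes for the fragments that hold annotated promoters (the baits). GM12878 is an established B-lymphoblastoid line, grown here without any treatment, and 3 biological replicates were called together into 1 list. The list therefore held no spread over replicates and no library depth, so no test was made. The paper itself gives read pairs per replicate and describes the first GM12878 replicate as of poorer quality than the others. The shares below carry Wilson 95% intervals where stated, which cover counting error only. The intervals treat fragments and pairs of baits as independent. Nearby fragments often had baits in common, so the intervals may be too narrow. Each call had a read count, averaged over the replicates with weights for depth and rounded, and a CHiCAGO score, which rises as the read count exceeds the background expected for the distance and for both fragments, and calls with a score of at least 5 were listed.

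Distal fragments that contact promoters often hold enhancers, silencers or binding sites for proteins that shape the chromosome. A promoter can contact many such fragments, and neighbouring promoters can contact the same one, as in hubs where genes and regulatory elements lie close together in the nucleus. CTCF, a zinc finger protein, binds DNA at the ends of many chromatin loops together with cohesin, and the CTCF sites at both ends of a loop commonly face each other.

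Sequences of 2 sets of shared fragments are shown so that the members with the most baits can be found in the genome and read. The first set holds the 10 fragments that the values below follow in full, each the fragment with the most baits of its neighbourhood, numbered from the most baits down. Shown are the first 60 bases of 9 of them on the hg19 (GRCh37) reference, with the capitals marking the end left by HindIII.
Fragment 1 (chr6:27107453-27107512, plus strand): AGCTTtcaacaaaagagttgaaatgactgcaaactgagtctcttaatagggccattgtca
Fragment 3 (chr12:6883919-6883978, plus strand): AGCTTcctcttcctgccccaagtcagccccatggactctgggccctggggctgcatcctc
Fragment 4 (chr6:26267467-26267526, plus strand): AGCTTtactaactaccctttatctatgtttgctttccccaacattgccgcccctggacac
Fragment 5 (chr17:7391204-7391263, plus strand): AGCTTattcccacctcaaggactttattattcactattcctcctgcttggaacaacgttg
Fragment 6 (chr14:24717167-24717226, plus strand): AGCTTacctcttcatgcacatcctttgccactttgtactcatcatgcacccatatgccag
Fragment 7 (chr11:62337078-62337137, plus strand): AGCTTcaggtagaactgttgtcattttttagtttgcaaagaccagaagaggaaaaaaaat
Fragment 8 (chr6:26563905-26563964, plus strand): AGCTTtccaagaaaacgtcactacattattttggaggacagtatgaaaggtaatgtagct
Fragment 9 (chr12:56190065-56190124, plus strand): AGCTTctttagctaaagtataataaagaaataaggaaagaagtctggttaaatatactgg
Fragment 10 (chr11:64904105-64904164, plus strand): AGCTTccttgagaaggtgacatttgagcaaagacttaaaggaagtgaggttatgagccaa
Fragment 1 overlapped an exon of H4C9, a histone H4 gene (HIST1H4I in the bait names), by 5 bases. Fragment 3 overlapped 1159 bases of exons of LAG3.

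None of these 10 fragments held an exact match to the core consensus of CTCF on either strand. The second set was therefore chosen after the values were seen, as the 8 fragments with the most baits that did hold it, 1 in each neighbourhood. Shown are 60 bases around each match on hg19, written along the strand on which the core reads, with the 12 bases of the core in capitals, and each fragment is named by a gene it overlaps or by a gene of a bait that called it.
GAPDH and IFFO1 fragment (chr12:6647188-6647247, minus strand): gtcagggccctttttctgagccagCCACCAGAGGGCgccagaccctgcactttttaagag
GSTM5 fragment (chr1:110319609-110319668, plus strand): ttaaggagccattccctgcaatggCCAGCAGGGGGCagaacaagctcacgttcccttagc
ZBTB32 fragment (chr19:36184874-36184933, plus strand): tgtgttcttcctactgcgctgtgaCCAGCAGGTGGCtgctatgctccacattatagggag
TIMELESS fragment (chr12:56586895-56586954, plus strand): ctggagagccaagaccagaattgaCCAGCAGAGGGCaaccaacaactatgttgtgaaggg
ABCA2 fragment (chr9:139664564-139664623, plus strand): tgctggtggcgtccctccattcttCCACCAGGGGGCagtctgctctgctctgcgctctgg
SEMA7A fragment, first core (chr15:74667069-74667128, plus strand): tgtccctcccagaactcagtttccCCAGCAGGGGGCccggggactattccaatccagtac
SEMA7A fragment, second core (chr15:74667718-74667777, plus strand): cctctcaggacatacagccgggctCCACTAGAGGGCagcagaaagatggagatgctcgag
SNRNP70 fragment (chr19:49729438-49729497, plus strand): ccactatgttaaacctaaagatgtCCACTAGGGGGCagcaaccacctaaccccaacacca
SLC44A4 fragment (chr6:31831786-31831845, minus strand): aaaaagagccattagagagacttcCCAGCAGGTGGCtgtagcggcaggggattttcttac
The fragments of this set were called from 11 to 15 baits, and the SEMA7A fragment held the core at both places shown. The core was on the plus strand in all of them except the GAPDH and IFFO1 fragment and the SLC44A4 fragment.

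The number of baits per fragment fell off steeply. From 5 baits 641 fragments were called, from 10 or more 185, and from the most, 26 baits, 1 fragment. Just outside the rule, 1282 fragments were called from 4 baits. Fragments with 4 baits and with 5 baits had median lengths of 4732.5 and 4808 bp, median distances to their baits of 154 and 140 kb, and a median of 19 and 24 listed baits within 500 kb.

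**Figure D1:**
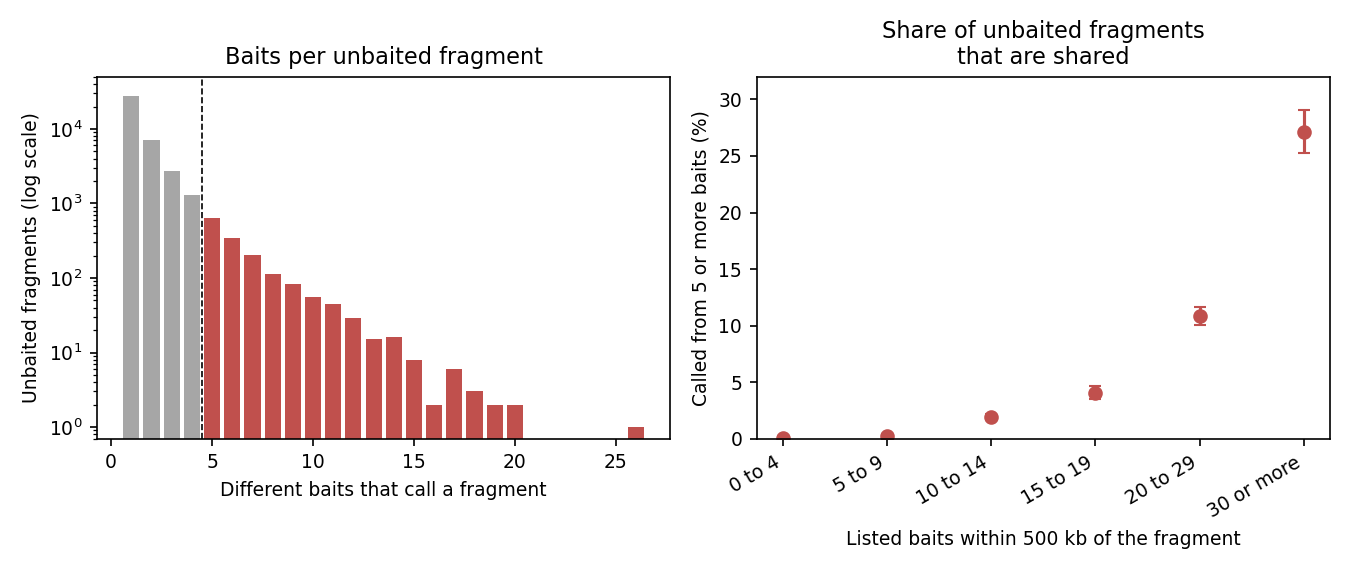
The plot gives the number of unbaited GM12878 fragments (log axis) by the number of different baits that called them. Of 39953 fragments, 27315 were called from 1 bait and 1564 from 5 or more, up to 1 fragment with 26 baits.

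Shared fragments lay unevenly over the genome. They were found on 20 chromosomes, with 255 on chromosome 1, 234 on chromosome 12 and 159 on chromosome 17. Chromosomes 12 and 19 had the highest proportions, 9.90% and 9.67% of their unbaited fragments with a cis call. None lay on chromosomes 13, 18 and X, which held 615, 641 and 480 such unbaited fragments.

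The places with many shared fragments were those with many baits. The median shared fragment had 27 listed baits within 500 kb, compared with 13 for fragments called from 2 to 4 baits and 9 for fragments called from 1 bait. Where fewer than 5 baits were listed within 500 kb, 4 of 5481 unbaited fragments were shared (0.0730%), and where 30 or more were listed, 578 of 2129 were (27.1%). The part of bait density in the count of shared fragments was not tested. Most nearby baits did not call a given fragment, since the median shared fragment was called from 24.3% of the listed baits within 500 kb (quartiles 18.5% and 33.3%).

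Shared fragments were joined into 593 neighbourhoods wherever their midpoints lay within 50 kb of the next. Of these, 344 held a single shared fragment (58.0%), and 25 neighbourhoods of 10 or more held 463 fragments, 29.6% of the total. The neighbourhood with the most was chr12:6407964-7041469, with 50 shared fragments and 525 calls from 33 baits, across genes such as GAPDH, CHD4 and CD4. It was followed by 2 others on chromosome 12, of 42 fragments around SMARCC2 and TIMELESS (chr12:56480354-57052817) and of 34 around AAAS and PFDN5 (chr12:53412418-54017128). Then came 33 fragments around SRCAP and DCTPP1 (chr16:30375855-30819707) and 26 within the HIST1 cluster of histone genes (chr6:26138290-26362541), which had the most baits of any neighbourhood, 35.

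By position relative to genes, 759 of the 1564 shared fragments (48.5%, interval 46.1% to 51.0%) overlapped an exon of a protein-coding transcript, compared with 40.7% of the fragments called from 2 to 4 baits and 32.1% of those called from 1. Another 290 (18.5%) lay in a protein-coding gene but touched no exon, compared with 26.1% and 31.6%. Outside protein-coding genes lay 515 shared fragments (32.9%, interval 30.6% to 35.3%), close to the 33.2% of fragments called from 2 to 4 baits and below the 53.9% of all HindIII fragments, and 321 (20.5%) touched no annotated gene of any kind, near the 21.2% and 22.7% of the other fragments. Although none was listed as a bait, 192 shared fragments (12.3%) held a start of a protein-coding transcript in the later annotation used here, compared with 8.50% and 5.33%. A start of any annotated transcript, coding or not, lay in 566 shared fragments (36.2%), compared with 25.7% and 19.2%. Shared fragments were also longer, with a median of 4867 bp against 4570 and 4108 bp, and richer in G and C, with a median of 46.1% against 43.8% and 42.3%. The part of length, base composition and gene density in these proportions was not tested.

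The baits of a shared fragment were mostly spread on both sides of it. All baits lay on one side for 463 shared fragments (29.6%, interval 27.4% to 31.9%), compared with 68.0% of the fragments called from 2 to 4 baits. A fragment with more baits has fewer ways to keep them on one side, and among the 185 fragments with 10 or more baits 12 did (6.49%). The median call spanned 144 kb (quartiles 67.2 and 248 kb), and the baits of a median fragment lay over 356 kb. The stretch from the fragment to its farthest baits held a median of 12 listed baits. A median of 53.8% of the listed baits in the stretch called the fragment, so baits that did not call lay there too. The listed bait nearest to the fragment was among the callers for 563 shared fragments (36.0%). A bait directly beside a fragment may have been unable to call it, since the paper's supplement recommends removing fragments adjacent to a bait. Of the fragments directly beside shared fragments, 16.3% were baited, so the 36.0% may be too low.

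At the same distance, calls to shared fragments had much the same read counts as other calls. The median was 35 reads within 50 kb, compared with 36 for fragments called from 2 to 4 baits and 40 for those called from 1, and it was 16, 16 and 17 reads between 100 and 200 kb. The scores in the latter distance class were 7.44, 6.68 and 6.16. The calls of 1 fragment also differed among themselves, with a median ratio of 3.73 between its highest and lowest read count. A fragment entered through calls that each passed the score limit, so the scores are a description of the selected calls.

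The fragment with the most baits was fragment 1, chr6:27107453-27111875, between the baits of the histone genes HIST1H4I and HIST1H2AH. Of its 26 baits, 23 carried a HIST1 symbol, that is, they held genes for histones, which package DNA and are made in bulk when DNA is replicated. The nearest was HIST1H2AH with HIST1H2BK at 4.82 kb, with 247 reads and a score of 17.5. The 2 highest scores belonged to far baits, 42.5 for HIST1H2AD with HIST1H3D at 911 kb (26 reads) and 38.1 for HIST1H3H at 670 kb on the other side (31 reads). Next in score were HIST1H4J, HIST1H4F, HIST1H2AB, HIST1H2AM with HIST1H3J, HIST1H4H, HIST1H2BI with HIST1H3G, HIST1H4E with HIST1H2BF, HIST1H1B, HIST1H3E and HIST1H4G, at 34.1 down to 17.8. The 3 baits without a histone symbol were ABT1, which encodes an activator of basal transcription, ZNF322 and HMGN4, all between 450 and 572 kb away with 8 or 9 reads. None of its callers lay between HIST1H2AH and ZNF322. The callers thus formed a near bait and distant clusters to the left and to the right. The baits of HIST1H4I and of HIST1H2AG with HIST1H2BJ, 1 and 3 fragments to its left, did not call it. Being adjacent, the former may have been unable to. Of the 11 listed baits within 500 kb, 2 called it.

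Fragment 2, chr6:27786656-27789605, lay outside annotated genes near HIST1H2AJ and HIST1H3H, and 19 of its 20 baits were HIST1 baits. Its baits fell into a near group at 3.58 to 77.1 kb and a far group, led by HIST1H2AD with HIST1H3D at 1590 kb (15 reads, score 26.6) and HIST1H2AB at 1755 kb (12 reads, score 24.4). HIST1H2AH with HIST1H2BK stood between them at 674 kb (29 reads, score 25.2). Fragment 4, chr6:26267467-26271041, lay towards the other end of the cluster and again had near and far callers. Of its 19 baits, 17 were HIST1 baits, with HIST1H2AH at 845 kb scoring highest (23 reads, score 20.7), HIST1H3H at 1510 kb (14 reads, score 19.6) and the near bait HIST1H2AD with HIST1H3D at 70.97 kb (44 reads, score 20.3). HMGN4 and ABT1 were its other callers.

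Fragment 8, chr6:26563905-26570767, lay between HMGN4 and ABT1 and outside the histone genes, and still 11 of its 16 baits were HIST1 baits. HIST1H4H at 280 kb scored highest (22 reads, score 11.95), followed by HIST1H2BI with HIST1H3G and by BTN2A2, a butyrophilin gene. Its nearest baits were ABT1 and HMGN4, both at 29.9 kb with 28 reads and with scores of 5.94 and 5.15. The farthest was HIST1H3H at 1212 kb with 8 reads.

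Histone genes are repetitive, so each fragment was compared with its baits for identical sequence. Baits were not compared with each other, nor fragments with other places in the genome. Fragments 1, 2 and 4 had no exact run of 50 bases in common with any of their baits, and fragment 8 had one with 3 of its 16. Over all HIST1 baits, 12 of 509 calls to shared fragments joined fragments with such a run (2.36%). In all, 45 shared fragments were called from 5 or more HIST1 baits, and 39 of them had such a bait over 1 Mb away. Of the 185 calls of 1 Mb or more to shared fragments, 158 came from HIST1 baits (85.4%).

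**Figure D2:**
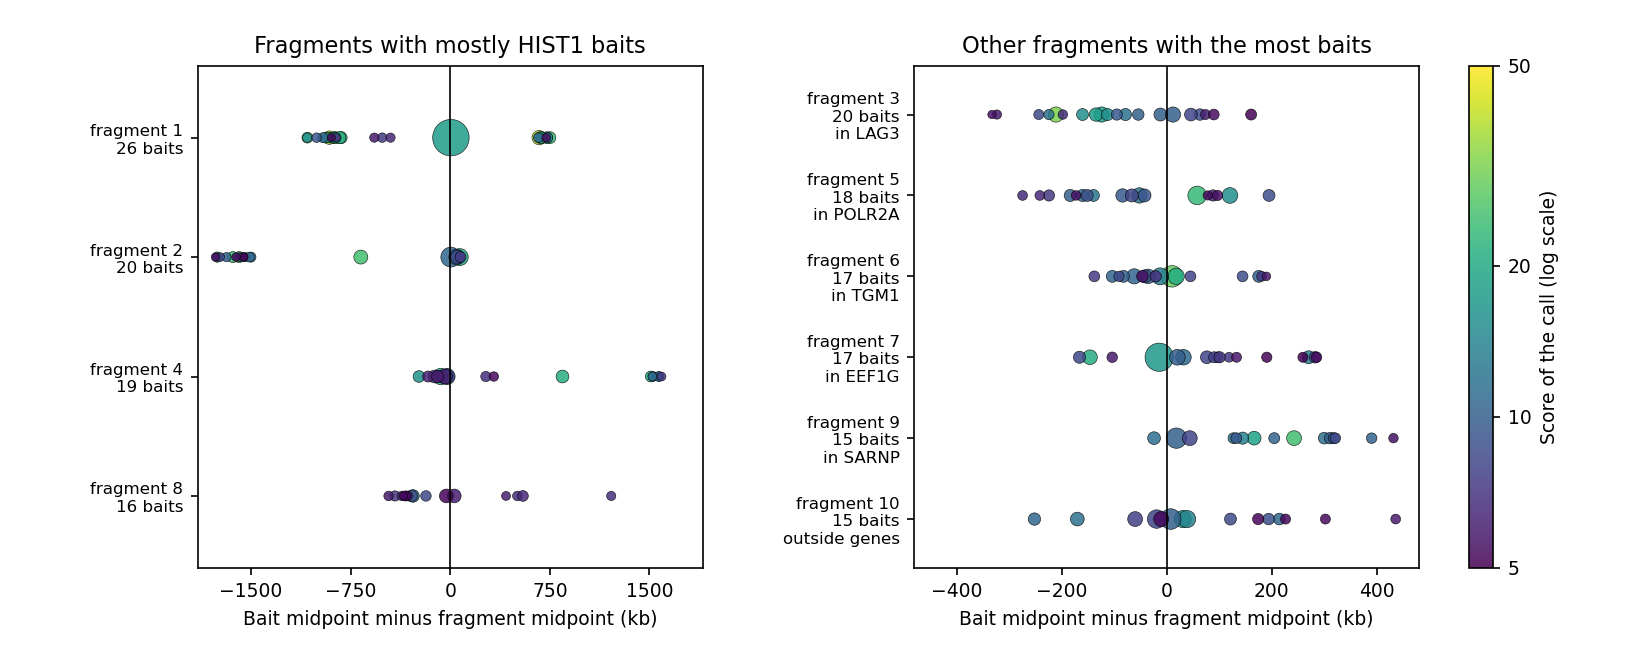
The plot places each bait of the 10 named fragments by its midpoint minus that of the fragment (kb), with point area following the read count and colour the score (log scale, shown up to 50). The 4 fragments of chromosome 6 on the left have mostly HIST1 baits out to 1768 kb, in separate near and far groups for fragments 1, 2 and 4, whereas the baits of the 6 fragments on the right lie within 436 kb and spread more evenly.

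Fragment 3, chr12:6883919-6889462, lay in LAG3, which encodes an inhibitory receptor of lymphocytes, in the neighbourhood with 50 shared fragments. It was called from 20 of the 40 listed baits within 500 kb, 14 to the left and 6 to the right. CHD4 with NOP2 led at 211 kb (36 reads, score 31.7), where CHD4 encodes a chromatin remodelling ATPase and NOP2 a ribosomal RNA methyltransferase. The bait of ACRBP and ING4, the latter encoding a reader of histone methylation, had the same 36 reads at 124 kb and a score of 18.7. The next baits were ACRBP, CHD4 with LPAR5, ING4, PIANP, IFFO1, PTMS, COPS7A, CD4, ZNF384 and GNB3, with scores from 17.8 down to 8.55. CD4, the coreceptor gene of helper T cells, had 36 reads too, but lay 11.9 kb away and scored 10.1. LAG3 has a bait of its own, the adjacent fragment with LAG3, MLF2 and PTMS, and it was not among the callers. Being adjacent, that bait may have been unable to call fragment 3, so its absence is not informative.

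Fragment 5, chr17:7391204-7397561, lay in an intron of POLR2A, the gene of the catalytic subunit of RNA polymerase II, and had 18 baits. TNFSF12, which encodes the cytokine TWEAK, scored highest with 58 reads at 57.9 kb (score 23.4). After it came a bait of snoU13, ACAP1 with KCTD11, FGF11 with TMEM102, NEURL4, EIF5A with GPS2, NLGN2, CHRNB1, ACAP1, WRAP53, SPEM1 and CLDN7 with ELP5, with scores from 15.4 to 7.24. The bait named for POLR2A, ZBTB4 and SLC35G6, 2 fragments away, did not call it.

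Fragment 6, chr14:24717167-24727050, overlapped TGM1, the transglutaminase gene of the skin barrier, and itself held an annotated transcript start of that gene. It was called from the TGM1 bait at 10.1 kb (80 reads, score 28.9). RABGGTA and TINF2 with GMPR2 followed (scores 20.6 and 13.0), and TINF2 encodes a protein that protects telomeres. The others in order were IPO4, PSME2 with RNF31, KHNYN with CBLN3, REC8, NEDD8, CHMP4A, NYNRIN, IRF9 and NOP9, at 10.6 down to 7.94. PSME2 (a proteasome activator subunit) and IRF9 (a factor of the interferon response) lay to its left at 104 and 90.8 kb.

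Fragment 7, chr11:62337078-62340421, overlapped an exon of EEF1G, a translation elongation factor gene, and had 17 baits. AHNAK, the gene of a giant scaffold protein, gave 145 reads at 14.4 kb but a score of 17.0, below the 20.6 of the non-coding CTD-2531D15.4 with 33 reads at 146 kb. The other leading baits were WDR74, MTA2 with EML3, TUT1, ASRGL1, C11orf48 (on 3 baits), INTS5 with GANAB, SNHG1 and LRRN4CL, with scores from 12.7 to 7.24. The bait of EEF1G itself did not call it, but that bait is adjacent and may likewise have been unable to.

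Fragment 9, chr12:56190065-56198174, overlapped exons of SARNP, which encodes an RNA-binding protein, and 14 of its 15 baits lay to its right. RPS26, a ribosomal protein gene, led at 242 kb (34 reads, score 24.9), followed by CDK2 with PMEL and RAB5B at 166 kb (28 reads, score 18.8), where CDK2 is a kinase of the cell cycle. The next were DGKA (3 baits), ERBB3, the bait of SARNP itself, IKZF4 with SUOX, SMARCC2, ORMDL2, PA2G4 with RPL41 and ESYT1, with scores from 13.8 to 9.36. ORMDL2 had the most reads, 71, at 18.4 kb.

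Fragment 10, chr11:64904105-64912621, touched no annotated gene and had 15 baits. SPDYC at 30.4 kb (48 reads, score 18.9) and CAPN1, a calpain protease gene, at 38.6 kb (49 reads, score 14.0) led. C11orf85, EHD1, TIGD3, the small nuclear RNA pseudogene RNU2-23P, DPF2, POLA2, FAU with MRPL49, CDCA5 with ZFPL1, FAM89B and NEAT1 followed with scores from 11.7 to 5.37. POLA2 and CDCA5 encode a DNA polymerase subunit and a cohesin regulator. In fragments 3, 5, 6, 7, 9 and 10 from 0 to 2 baits had a 50-base run in common with the fragment.

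Most baits with a shared fragment had few. The median over the 2750 such baits was 2 (quartiles 1 and 4), and the most was 48. CHD4 with NOP2 called these 48 among 61 unbaited cis fragments, with a median distance of 160 kb. HIST1H2AH with HIST1H2BK called 44 of 81 at a median of 801 kb, and ACRBP with ING4 called 44 of 45. The others in the leading 10 were HIST1H2AD with HIST1H3D (40), GAPDH (40), ACRBP alone (39), NABP2 with SLC39A5 (38), SMARCC2 (36), HIST1H1B (33) and CHD4 with LPAR5 (32), and IFFO1 in the same stretch equalled the last of these with 32. Thus 5 of these 10 baits lay in the GAPDH to CHD4 stretch, 3 among the HIST1 genes and 2 around SMARCC2.

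The share of listed baits with a shared fragment differed among gene families, as did the number of baits nearby. Among all listed baits the share was 17.9%, with a median of 10 other listed baits within 500 kb, and it went from 0.311% of baits with fewer than 5 others to 69.9% of baits with 30 or more. HIST1 baits had one in 33 of 40 cases (82.5%), with a median of 11 shared fragments each and 36 other baits nearby. All 4 HIST2 baits had them (median 15.5), as did 11 of 21 HLA, 25 of 44 protocadherin and 16 of 36 HOX baits, with medians of 29, 37 and 25 others nearby. Keratin baits had as many as 28 others nearby, and 11 of 49 had a shared fragment (22.4%). Olfactory receptor baits, with 17 others nearby at the median, had one in 22 of 218 cases (10.1%), and chemokine baits in 3 of 34 (8.82%). Zinc finger genes named ZNF (55 of 288), microRNA genes (78 of 420), small nucleolar RNA genes (70 of 396), TNF superfamily genes (4 of 21), TRIM genes (10 of 42) and ribosomal protein genes (18 of 79) had between 17.7% and 23.8%, and interleukins with their receptors had 33.8% (25 of 74). None of the 5 immunoglobulin baits did, with 5 others nearby at the median. The medians of others nearby were 15.5 for HIST2, 11 for chemokine and 13 for interleukin baits. They were 10 to 15 for the families from ZNF to ribosomal protein genes.

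Among genes of B cell identity the lists differed. Of the 26 baits of B lineage factors, the transcription factors that set up and keep the B cell state, 2 called a shared fragment, and both belonged to POU2F2, which encodes Oct-2. PAX5, EBF1, IRF4, IRF8, ETS1, PRDM1 and BACH2 called none, although IRF4, PRDM1 and ETS1 called 44, 42 and 52 unbaited fragments. These baits had a median of 8 others within 500 kb. POU2F2 called 14, led by a fragment within POU2F2 at chr19:42607203-42612999 (87.5 kb, 33 reads, score 19.4), which the baits of ERF, CIC, CNFN and DEDD2 also called.

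Of the 21 baits of the B cell receptor and its coreceptors, 8 called a shared fragment (38.1%), with 14 other baits nearby at the median. CD22, an inhibitory coreceptor, called 5, and 1 of these, chr19:35979181-35982323 at 167 kb, was called from 12 baits, HAMP and MAG among them. CD79A, a signalling chain of the receptor, called 1 fragment, in ARHGEF1 at 11.9 kb (39 reads, score 13.5), together with RPS19. CD79B, the partner chain, called 2, and in one of them, overlapping ICAM2, it was joined by GH1 and SCN4A. MS4A1, which encodes CD20, had 1 fragment in common with MS4A6A, MS4A6E, MS4A12 and MS4A13, its relatives in the same cluster. CD80 and CD37 called 1 and 2, and BLK called 5. SYK, BTK and LYN called none.

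In the NF-kB pathway, which relays signals from B cell receptors and CD40, 8 of 18 baits called a shared fragment (44.4%). The baits of this list had a median of 14 other listed baits within 500 kb. Over all listed baits the share was 17.9% and the median 10. NFKB2 called 7, and its top fragment at chr10:103927798-103929406, 226 kb away (22 reads, score 16.9), was also called from NOLC1 and ELOVL3. NFKBIE, an inhibitor gene, called 1 fragment with 10 baits, HSP90AB1 and VEGFA among them, and NFKB1, RELB, IKBKB, IKBKE and MAP3K14 called 1 or 2 fragments each. REL, TNFAIP3 and TRAF1 called none, although they called 29, 32 and 50 unbaited fragments. Among cell cycle genes 5 of 15 baits called a shared fragment (33.3%), with 10 others nearby at the median. CDK4 called 13, CCNB1 10, CDK2 9 and CDKN1B 2. For comparison, 3 of 7 baits of liver and neuronal genes called one, namely APOA1, APOA2 and GRIN1, with 14 others nearby at the median of the list. So sharing was also seen at genes that a B cell is not known for. The part of bait density in these shares was not tested.

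The fragments next to a shared fragment were examined on the HindIII map. Of 1564 shared fragments, 586 (37.5%, interval 35.1% to 39.9%) had another shared fragment directly beside them, and 112 had one on both sides. The same held for 7.05% of fragments called from 2 to 4 baits and 1.21% of those called from 1. Of all adjacent fragments, 22.3% were shared, 37.9% called from 1 to 4 baits, 16.3% baited and 23.6% absent from the list. The absent ones were short, with a median of 637 bp against 4415.5 bp for the shared. Where 2 shared fragments were adjacent (349 pairs), a median of 71.4% of the baits of the left one also called the right one, and 70% the reverse.

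The number of baits dropped sharply within 1 fragment of a neighbourhood's leading member and more slowly beyond it. The leading fragments of the 593 neighbourhoods had a mean of 6.72 baits, the fragments directly to the left and right 2.00 and 1.78, and those 10 fragments away 1.12 and 1.02. Since the leading fragment was picked for its baits, the drop itself follows from the choice. In the named set, fragment 4 had neighbours with 14 and 16 baits to its left, beside its 19, whereas fragment 10 had uncalled fragments of 539 and 53 bp on both sides.

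**Figure D3:**
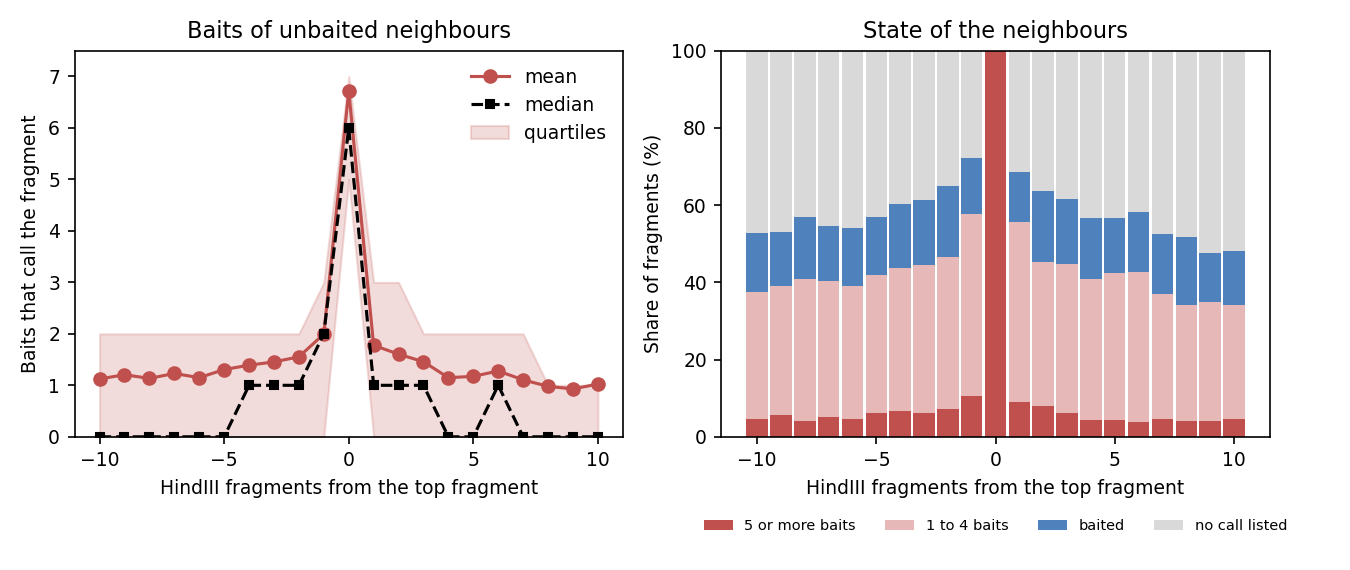
The left panel gives the mean (red), median (black) and quartiles (band) of the number of baits calling unbaited fragments at each position, in HindIII fragments, from the leading fragment of each of 593 neighbourhoods. The right panel gives the percent of fragments at each position that were shared, called from 1 to 4 baits, baited or not listed, and the mean falls from 6.72 at the centre to 2.00 and 1.78 directly beside it.

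Calls between baits did not enter the rule and show whether promoters that share a distal fragment were also called with each other. Of 12830 different pairs of baits with a shared fragment in common, 4240 were called with each other (33.0%). Pairs of baits between 100 and 200 kb apart were called with each other in 39.6% of cases (interval 37.8% to 41.3%), compared with 36.1% for pairs that had only a fragment called from 2 to 4 baits in common and 26.3% for all pairs of listed baits at that distance. Between 500 and 1000 kb the values were 12.3%, 11.8% and 2.19%. All 25 pairs of HIST1 baits in this class were called, and pairs with a shared fragment in common but no HIST1 bait had 9.46% (76 of 803). Below 50 kb they were 35.9%, 24.9% and 30.6%. Between 200 and 300 kb pairs with a shared fragment had 34.5%, and pairs with a fragment called from 2 to 4 baits 36.1%. Between 300 and 500 kb the former had 19.5% (interval 17.8% to 21.2%), below the 25.2% of the latter (interval 23.1% to 27.5%) and above the 10.3% of all pairs. So most pairs that shared a fragment were not called with each other at the score limit.

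The pairs between 1 and 3 Mb stood apart, with 173 of 287 called (60.3%) against 10 of 89 pairs with a fragment called from 2 to 4 baits in common (11.2%) and 0.178% of all pairs of listed baits. Of these, 183 joined HIST1 baits to each other, and 164 of the 183 were called (89.6%). Of the 33 pairs without a HIST1 bait, 1 was called (3.03%). The baits of a pair were not compared for identical sequence. The same calls and libraries lie behind both measures, and the share over all distances was 31.6% with chromosome 6 left out.

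**Figure D4:**
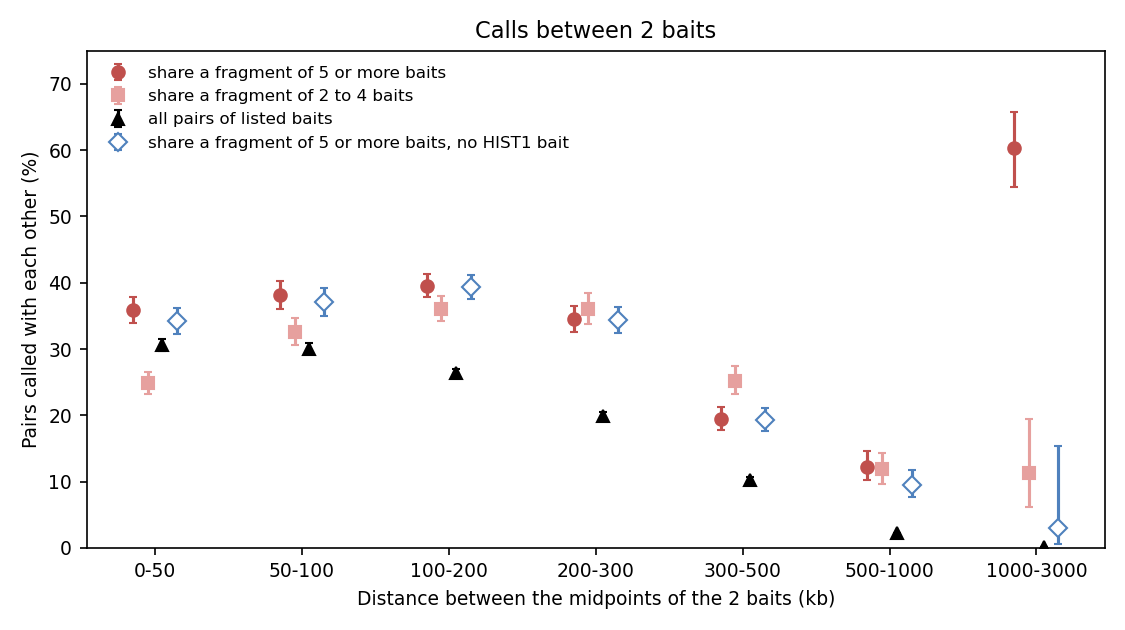
The plot gives the percent of pairs of baits that were called with each other, by the distance between them (kb), for pairs that have a shared fragment in common, pairs that have a fragment called from 2 to 4 baits in common, and all pairs of listed baits, with Wilson 95% intervals. The first group lies above all pairs in every distance class, and its value of 60.3% between 1 and 3 Mb came mostly from HIST1 baits.

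An exact match to the CTCF core consensus was found in 116 of 1564 shared fragments (7.42%, interval 6.22% to 8.82%), compared with 5.35% of fragments called from 2 to 4 baits, 3.69% of those called from 1 and 1.30% of all HindIII fragments. The core was searched in the 12 bases of the consensus on both strands of the reference, so a match is a description of the sequence and not a measurement of binding. Longer and GC-richer fragments hold it more often, and per Mb of sequence the values were 13.7, 10.1 and 7.62 matches. Between 4 and 6 kb of length 7.59% of shared fragments held it, against 4.28% and 3.37%, while above 12 kb the values were 14.0%, 14.4% and 12.1%. Among fragments with 42% to 46% of G and C the values were 4.60%, 4.66% and 2.93%, and with at least 50% they were 12.9%, 10.7% and 8.43%. Shared fragments were also above those called from 2 to 4 baits between 38% and 42% (5.65% against 3.19%) and between 46% and 50% (7.99% against 6.36%), with overlapping intervals in each class, and below them under 38% (1.37%, 1 of 73, against 2.31%). The part of length and base composition was not tested. Among the 84 fragments shared at a score of at least 10, 4.76% held the core.

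**Figure D5:**
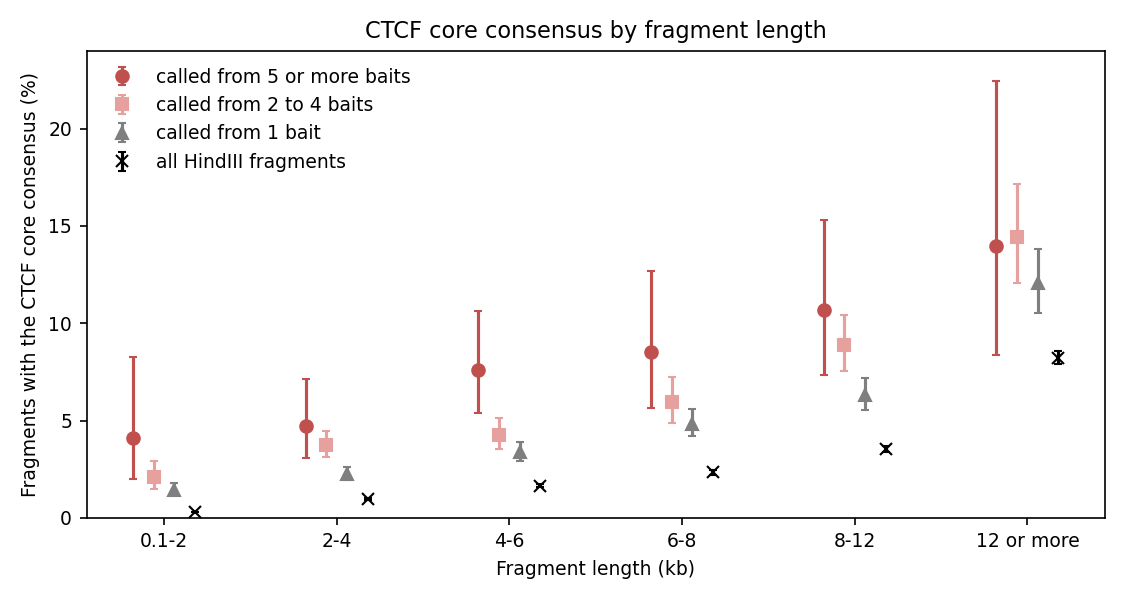
The plot gives the percent of fragments with an exact CTCF core match by fragment length (kb), for fragments called from 1 bait, from 2 to 4 and from 5 or more, and for all HindIII fragments, with Wilson 95% intervals. Called fragments lie above all HindIII fragments in each class, and the intervals of the shared fragments overlap those of fragments called from 2 to 4 baits in every class except that of 4 to 6 kb.

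The strand of the core was set against the side of the baits, which the rule did not use. Of 112 shared fragments with the core on 1 strand and more baits on one side than on the other, 83 had most baits on the side towards which the core reads (74.1%, interval 65.3% to 81.3%). The value was 80.7% for fragments called from 2 to 4 baits and 71.9% for those called from 1. Among the printed windows, the core of the SEMA7A fragment read to the right, where 11 of its 12 baits lay, SEMA7A, CSK and SCAMP2 among them. The SLC44A4 fragment read to the left, towards 10 of its 11 baits in the major histocompatibility region, such as BAG6, CSNK2B and DDX39B. Of the 8 fragments, 3 went the other way. The core of the GAPDH and IFFO1 fragment read to the left with 9 of 15 baits on its right, and those of the GSTM5 and SNRNP70 fragments read to the right with 9 of 14 and 6 of 11 baits on their left.

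Identical sequence in a fragment and its bait was more common for shared fragments than for others. A run of 50 bases in common with at least 1 calling bait was found in 500 of 1564 shared fragments (31.97%), against 10.8% and 3.18%, and in 7.80% of their calls, against 5.06% and 3.18%. A fragment with more baits has more chances to match one of them. Without the calls that joined such fragments, 1352 fragments were still called from 5 or more baits. No shared fragment had a call from a bait on another chromosome in the list, and such calls were rare for the others too, with 8 of 11074 fragments called from 2 to 4 baits (0.0722%) and 10 of 27315 called from 1 (0.0366%).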

How the data were processed

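The scores and read counts used here were made by the authors: reads were mapped to hg19 with HiCUP (with Bowtie 1.1.0 per the submitters' processing notes), the 3 GM12878 replicates were called jointly with CHiCAGO, and pairs with a score of at least 5 were deposited, each with a rounded read count weighted over the replicates. Replicates were therefore pooled before deposit, and depth per sample is unknown from these lists. Deposited mouse embryonic stem cell calls and Hi-C bins were not used.

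From the list, cis calls to unbaited fragments were counted per fragment (Python 3.11.15, pandas 2.3.3, numpy 2.4.6, bedtools 2.31.1). The counting was tested on simulated data. All 56775 listed fragments matched the 837157 HindIII fragments digested from GRCh37, and genes and exons came from GENCODE release 44 lifted to that build. Distances join fragment midpoints, listed baits are those with at least 1 call, and 256 of them had no symbol. A bait carrying several symbols counts once and may hold several promoters. The members and gene lists were chosen with earlier results of these data known. Named fragments were the leading fragments of the 10 neighbourhoods with the most baits on 1 fragment, with up to 12 baits each in order of score, and the 10 baits with the most shared fragments. Ties were broken by the higher summed score of the fragment (which left out 2 neighbourhoods whose leading fragment also had 15 baits) and by the bait's highest score. Other baits of these fragments, the CTCF windows and the most distant calls were picked after their values were seen. Genes of the lists are named with all their baits. The first bases of fragment 2 and a few genes are not reported here.

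Alternatives were stricter scores, reads and numbers of baits, joined baits, other distances and neighbourhood gaps, and sequence matches with 1 mismatch. Chosen after seeing the data were the settings without chromosome 6, without calls between fragments with a 50-base run in common, and with 10 baits for the CTCF core.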

Additional observations from a re-analysis of the deposited data

How the results depend on the processing

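No paired analysis was possible because the replicates were pooled before calling. Of 34 alternatives, 14 stayed within 1.5 times a reported count or within the 95% interval of a reported share or median, and 20 moved beyond it. The 1564 shared fragments became 2846, 923 and 185 with at least 4, 6 and 10 baits, and 906 with baits within 20 kb counted as 1. At a score of at least 10, 84 remained, in 48 neighbourhoods and with 240 baits, with a median distance of 133 kb, 35.7% with all baits on one side, 32.02% of bait pairs called with each other, 4.76% with the CTCF core, 22.6% with a shared neighbour and a median of 23 reads. Of these 84, 28 lay on chromosome 12 and 13 had 5 or more HIST1 baits at that score. Joining adjacent fragments alone gave 1215 neighbourhoods in place of 593. Counting baits within 20 kb as 1 gave 20.4% with all baits on one side, and leaving out chromosome 6 gave a median distance of 139 kb and 31.6% of bait pairs called. By midpoint alone, 37.5% lay outside protein-coding genes. With 1 mismatch 35.5% held the CTCF core, and with at least 10 baits 29.2% had a shared neighbour. The cause of these moves was not tested, including the part of the smaller number of calls that stricter rules leave. Depth limits the list, since fragments just under the score limit are missing from it and a bait that did not call a fragment may still contact it.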

Other observations

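A few shared fragments had calls far beyond the rest, and they were picked after their values were seen. Whether hg19 places these fragments correctly was not tested, and the distances, the baits nearby and the scores below rest on that placement. The fragment chr1:144008808-144014967 was called from 6 baits that lay 62.2 to 62.8 Mb away, and no listed bait lay within 500 kb of it. RASSF5, which encodes a Ras effector, gave 11 reads with a score of 40.8, and IKBKE, a kinase gene of the NF-kB pathway, 12 reads with a score of 24.4. MAPKAPK2, CTSE, C1orf186 and AVPR1B gave 4 or 5 reads each. All 6 baits lie near each other on the long arm, and none had a 50-base run in common with the fragment.

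On the same chromosome, 5 fragments within and beside PDE4DIP, from chr1:145025986-145035496 to chr1:145079962-145088912, were called from baits on the other side of the centromere. ADAM30 called all 5 at a distance of 24.6 Mb, with 5 to 19 reads and scores of 9.40 to 80.2, the latter being the highest score of any call to a shared fragment. The fragment with that call had 5 near baits as well, enough to be shared without the far ones. The others had 5 or 7 baits, 1 to 3 of them far, and each fell under 5 baits without the far ones. REG4 called 3 of the 5 fragments, and PHGDH 1. Their near baits included RNU2-38P, which called all 5 from 87.3 to 141 kb with 8 to 24 reads, and RBM8A, TXNIP and HFE2. None of the calls across the centromere joined fragments with a 50-base run in common.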
